A study of Mus musculus with 10 samples.

Results

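The genes described here encode the extracellular matrix that covers the sensory epithelia of the inner ear, or act in its mineralization: Otog, Otogl, Tecta, Tectb, Otoa, Ceacam16, Otol1, Oc90 and Otop1. These 9 members were chosen by symbol for their known roles, not by a measured value, although earlier results of these data were known. They were read from a table of 48709 genes, of which 21695 are annotated as protein-coding. All 9 were matched by symbol in the annotation of the mouse genome build GRCm38. The RNA came from supporting cells of the murine utricle, a vestibular organ that senses gravity and linear acceleration, which had been isolated by fluorescence-activated sorting from mice whose supporting cells carry the Lfng-EGFP reporter. Utricles were taken at postnatal day 21 and cultured with 10 µM TRULI, an inhibitor of the Lats kinases of the Hippo pathway, in 0.1% dimethyl sulfoxide (DMSO), or with 0.1% DMSO alone. Some cultures ended after the 5 days of treatment and others were kept for 5 further days without the compound, 10 days in all. By their labels, 3 libraries are DMSO at 5 days, 3 are TRULI at 5 days, 2 are DMSO at 10 days and 2 are TRULI at 10 days. All libraries were made from cultured explants that carried the reporter, and none from uncultured tissue was analyzed here.

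In the utricle the sensory epithelium lies beneath the otolithic membrane, a gelatinous sheet loaded with calcium carbonate crystals called otoconia. Much of this matrix is secreted by supporting cells: otogelin and its relative, the products of Otog and Otogl, are mucin-like glycoproteins, the tectorins made from Tecta and Tectb form filaments, and otoancorin, from Otoa, lies where the gel meets the apical surface of the epithelium. Otoconin-90 is the major soluble protein of murine otoconia, otolin is a collagen-like scaffold protein, and otopetrin 1 is a proton channel without which otoconia fail to form. The product of Ceacam16 belongs to the tectorial membrane, the corresponding sheet of the cochlea.

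For 4 of the 10 libraries the sample label and the name under which the table was deposited give different conditions. The libraries labeled TRULI at 5 days, replicates 1 and 2, were deposited as DMSO at 10 days, and those labeled DMSO at 10 days, replicates 1 and 2, were deposited as TRULI at 5 days. The remaining 6 libraries, which are the 3 DMSO cultures at 5 days, TRULI at 5 days replicate 3 and the pair of TRULI cultures at 10 days, have a label and a name that give 1 condition. Every comparison is therefore given by label and again by deposited name, and which assignment is right was not determined. With all 10 libraries in a single fit the biological coefficient of variation, the spread between libraries of a group, was 0.516 by label and 0.421 by deposited name. The tables summed to 2463872 to 6255149 expected counts, which are estimated reads per gene. Mitochondrially encoded genes took 14.2% to 28.2% of the counts in 6 libraries and 2.09% to 3.52% in the other 4, namely those labeled TRULI at 5 days replicates 1 and 2 and those of TRULI at 10 days. Most of this was 1 ribosomal RNA, mt-Rnr2, at 13.0% to 26.4% of the counts in the 6 and 1.45% to 2.53% in the 4. Much and little mitochondrial RNA below refer to this split, which is thus mainly one of mt-Rnr2. Under the deposited names this split coincides with culture time, so that the mitochondrial share and the time point cannot be told apart.

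Markers of supporting cells were present in every library: each of 9 genes had more than 3 counts, and their summed level ran from 4967 to 9447 counts per 1000000 (CPM, scaled by TMM). Of these markers Epcam had the highest mean, 3591 CPM, and Sox2 the lowest, 57.8 CPM. The sum rests largely on Epcam, and single markers varied more: Slc1a3, a glutamate transporter, ran from 558 to 3890 CPM, and the markers called in a comparison are named beside it, chosen after their values were seen. Lfng, the gene on which the reporter is based, stood at 544, 505 and 504 CPM in DMSO at 5 days and at 304 CPM in TRULI at 5 days replicate 3. It stood at 526 and 294 CPM in the libraries labeled DMSO at 10 days, against 65.1 and 21.6 CPM in those labeled TRULI at 5 days replicates 1 and 2 and 104 and 67.8 CPM in TRULI at 10 days. The 4 libraries with the lowest Lfng are thus the 4 with little mitochondrial RNA. Hair-cell markers (8 genes, highest mean Otof at 114 CPM, lowest Ocm, which never exceeded 4 counts) summed to 26.3 and 39.6 CPM in the libraries labeled TRULI at 5 days replicates 1 and 2, to 711 CPM in replicate 3, to 859 CPM in TRULI at 10 days replicate 1 and to 127 to 484 CPM elsewhere. The summed levels of further lists were 18.5 to 131 CPM for 8 fibroblast genes (highest mean Col1a2, lowest Pou3f4) and 6.23 to 58.2 CPM for 4 dark-cell genes, of which Kcnq1 alone was detected and Bsnd, Esrrb and Kcne1 were at 0. They were 0.907 to 18.6 CPM for 5 leukocyte genes (highest Cd68, lowest Tyrobp), 0.366 to 14.3 CPM for 4 melanocyte genes (highest Pmel, with Tyr and Mlana at 0) and at most 3.08 CPM for 3 endothelial genes (highest Pecam1, with Cdh5 and Kdr at 1 count or fewer). Mbp, which encodes a myelin protein, ran from 21.6 to 122 CPM. The part of these marker levels in the differences below was not tested, and in bulk RNA fewer cells of a type and less RNA per cell cannot be told apart.

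**Figure D1:**
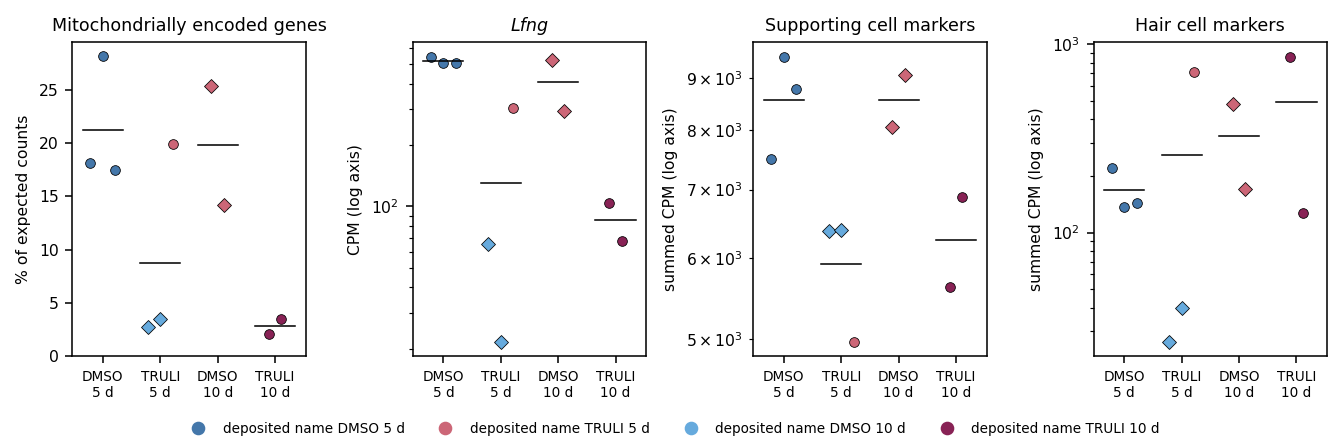
Share of expected counts from mitochondrially encoded genes (percent), CPM of Lfng, and summed CPM of the supporting-cell and hair-cell marker lists in each library, placed by sample label and colored by deposited name. Circles are libraries whose label and name agree, diamonds those that disagree, and lines are group means; the 4 libraries at 2.09% to 3.52% mitochondrial RNA also have the lowest Lfng.

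The matrix genes made up 0.387% to 1.33% of all counts in a library. Levels of different genes are comparable only per length, as fragments per kilobase and per 1000000 protein-coding counts (FPKM). Otog led with a median of 1339 FPKM over the 10 libraries, between the 11th and the 133rd place among protein-coding genes, and accounted for 48.6% to 78.5% of the members' summed CPM. Otol1 (324 FPKM), Tectb (270 FPKM), Tecta (244 FPKM), Otoa (209 FPKM) and Otop1 (145 FPKM) followed, and each of these overlapped its neighbors in this order over the libraries. Otogl and Oc90 were lower, with no library in the range of Otop1, at medians of 7.78 and 2.89 FPKM, and their ranges of 2.42 to 18.04 FPKM and 0.486 to 22.8 FPKM overlapped each other. Ceacam16 was at 0 counts in 7 of 10 libraries and at 1 or 2 counts in the others. The lengths behind these values are the effective lengths deposited with the counts, which average over annotated transcripts: 3396 bases for Otog and 2335 bases for Tecta, where the longest protein-coding transcripts have 10043 and 7338 bases. At the length of the longest protein-coding transcript the medians were 451 FPKM for Otog and 82.6 FPKM for Tecta, and Tecta then fell below Otol1 (290 FPKM), Tectb (225 FPKM), Otoa (140 FPKM) and Otop1 (134 FPKM), while Otog still led.

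**Figure D2:**
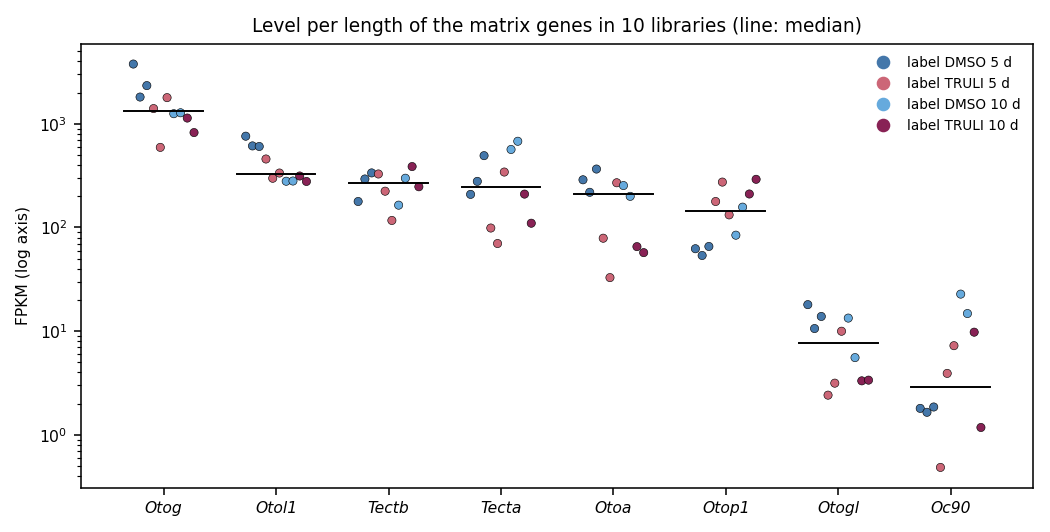
FPKM (log axis) of 8 matrix genes in each of the 10 libraries, ordered by median (line) and colored by sample label. Otog has the highest median, 1339 FPKM, and Otogl and Oc90 lie lowest at 7.78 and 2.89 FPKM; Ceacam16, at 0 to 2 counts, is not drawn.

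The sequence upstream of the start site is shown for the 5 members with a window that were called in a comparison as reported, with 2 motifs marked that a script searched on both strands: GGAATG, the core of the sites bound by Tead factors, and ACAAAG, a core bound by Sox factors. The windows are from RefSeq on GRCm38.p6, each the 250 bases before an annotated start, written 5′ to 3′ on the strand of the gene in lower case with every hit in capitals. That of Otog is chr7:46240737-46240986 (plus strand), those of Tecta, which has a pair of annotated starts, are chr9:42399948-42400197 and chr9:42401691-42401940 (minus strand), that of Otoa is chr7:121083174-121083423 (plus strand), that of Otop1 is chr5:38277154-38277403 (plus strand) and that of Otol1 is chr3:70007363-70007612 (plus strand).
Otog: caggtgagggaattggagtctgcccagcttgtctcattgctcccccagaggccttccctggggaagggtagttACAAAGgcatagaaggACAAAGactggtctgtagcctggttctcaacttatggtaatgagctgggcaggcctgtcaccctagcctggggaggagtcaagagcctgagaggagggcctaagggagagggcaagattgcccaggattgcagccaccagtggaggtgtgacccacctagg
Tecta, first window: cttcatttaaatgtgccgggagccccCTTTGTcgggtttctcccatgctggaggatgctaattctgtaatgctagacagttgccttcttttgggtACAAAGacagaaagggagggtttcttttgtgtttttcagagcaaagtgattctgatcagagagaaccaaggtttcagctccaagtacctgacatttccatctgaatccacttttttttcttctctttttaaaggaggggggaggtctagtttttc
Tecta, second window: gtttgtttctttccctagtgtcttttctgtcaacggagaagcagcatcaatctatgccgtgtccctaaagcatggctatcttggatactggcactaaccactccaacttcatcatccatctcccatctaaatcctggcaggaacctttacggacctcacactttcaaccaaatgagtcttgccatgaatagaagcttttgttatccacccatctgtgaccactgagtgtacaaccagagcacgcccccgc
Otoa: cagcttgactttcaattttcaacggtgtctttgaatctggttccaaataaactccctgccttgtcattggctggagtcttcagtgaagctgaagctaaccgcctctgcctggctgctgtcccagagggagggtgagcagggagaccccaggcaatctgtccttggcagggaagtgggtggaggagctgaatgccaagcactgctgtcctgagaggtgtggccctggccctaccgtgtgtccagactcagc
Otop1: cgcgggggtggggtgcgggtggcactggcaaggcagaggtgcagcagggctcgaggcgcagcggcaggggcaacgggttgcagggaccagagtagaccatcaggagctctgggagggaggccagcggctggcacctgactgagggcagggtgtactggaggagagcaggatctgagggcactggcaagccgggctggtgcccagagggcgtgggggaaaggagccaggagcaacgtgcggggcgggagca
Otol1: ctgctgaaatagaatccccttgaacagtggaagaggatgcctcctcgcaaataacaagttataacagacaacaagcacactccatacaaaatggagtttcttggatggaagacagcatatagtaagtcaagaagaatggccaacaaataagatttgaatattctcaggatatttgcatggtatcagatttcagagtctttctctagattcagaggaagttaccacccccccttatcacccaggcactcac
ACAAAG began 177 and 161 bases upstream of the Otog start. In the first Tecta window it lay 155 bases upstream, and its reverse complement CTTTGT 224 bases upstream, and the windows of Otoa, Otop1 and Otol1 and the second Tecta window held neither motif. GGAATG was in none of the 7 windows of the 6 members that have one (Otog, Tecta with 2 starts, Tectb, Otol1, Otoa and Otop1), counting 300 bases that reach 50 past the start, and ACAAAG was in 2 of the 7. Of 32851 such windows of all genes, 14.7% held GGAATG and 18.7% held ACAAAG in either orientation. Otogl, Oc90 and Ceacam16 have no window in this table. The starts that RefSeq gives for Otop1 and Otoa lie inside the spans of these genes in GENCODE M21.

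Otog (chromosome 7, 46240987 to 46311434, plus strand) is the most abundant transcript of the set. It stood at 9964, 4806 and 6216 CPM in DMSO at 5 days, at 4513, 2145 and 4463 CPM in the libraries labeled TRULI at 5 days, at 2970 and 3525 CPM in those labeled DMSO at 10 days and at 3587 and 2860 CPM in TRULI at 10 days. All 3 DMSO libraries at 5 days exceeded the other 7, whichever assignment is used, and the other groups overlapped. Otogl (chromosome 10, 107760531 to 107912134, minus strand), its relative, was read at 95.4, 56.9 and 73.4 CPM in DMSO at 5 days, at 15.8, 23.5 and 49.3 CPM in TRULI at 5 days by label, at 63.0 and 30.9 CPM in DMSO at 10 days by label and at 21.4 and 24.0 CPM in TRULI at 10 days. Its 4 lowest libraries were the 4 with little mitochondrial RNA.

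Otoa (chromosome 7, 121081650 to 121163097, plus strand), which encodes the protein at the interface of gel and epithelium, divided the libraries in the same manner. It reached 616, 428 and 760 CPM in DMSO at 5 days, 187, 86.5 and 519 CPM in TRULI at 5 days by label, 485 and 413 CPM in DMSO at 10 days by label and 149 and 151 CPM in TRULI at 10 days. The 4 libraries with little mitochondrial RNA lay at 86.5 to 187 CPM and the other 6 at 413 CPM or more. Within the group labeled TRULI at 5 days, replicate 3 was therefore unlike replicates 1 and 2.

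Tecta (chromosome 9, 42329619 to 42399929, minus strand), the gene for α-tectorin, was at 403, 541 and 979 CPM in DMSO at 5 days, at 197, 156 and 648 CPM in TRULI at 5 days by label, at 1024 and 1239 CPM in DMSO at 10 days by label and at 418 and 234 CPM in TRULI at 10 days. The highest pair was thus that labeled DMSO at 10 days and deposited as TRULI at 5 days, and the lowest that labeled TRULI at 5 days and deposited as DMSO at 10 days. Tectb (chromosome 19, 55180733 to 55196313, plus strand), for β-tectorin, stood at 338, 567 and 625 CPM in DMSO at 5 days, at 674, 509 and 206 CPM in TRULI at 5 days by label, at 280 and 571 CPM in DMSO at 10 days by label and at 779 and 544 CPM in TRULI at 10 days. Its groups overlapped in every comparison under both assignments, and its range over all libraries was 3.78-fold, against 7.93-fold for Tecta and 8.79-fold for Otoa. The annotation places the microRNA gene Mir6715 inside Tectb on the same strand. Ceacam16 (chromosome 7, 19852097 to 19861299, minus strand), which overlaps the gene Gm19345 on the opposite strand, had 0, 2 and 1 counts in DMSO at 5 days, 0, 0 and 2 counts in TRULI at 5 days by label and 0 counts in all 4 libraries at 10 days by label. These counts lie under the limit of 3 that a count of 0 allows, so that no difference was detectable at this depth.

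Otol1 and Oc90 encode proteins of the otoconia themselves. Otol1 (chromosome 3, 70007613 to 70028708, plus strand) was at 1138, 927 and 900 CPM in DMSO at 5 days, at 843, 626 and 467 CPM in TRULI at 5 days by label, at 371 and 439 CPM in DMSO at 10 days by label and at 570 and 557 CPM in TRULI at 10 days. All DMSO libraries at 5 days exceeded the other 7, and the lowest 3 libraries were the 3 deposited as TRULI at 5 days. Oc90 (chromosome 15, 65876053 to 65912397, minus strand) was scarce: it had 5, 6 and 9 counts in DMSO at 5 days, 4, 16 and 24 counts in TRULI at 5 days by label, 97 and 79 counts in DMSO at 10 days by label and 71 and 7 counts in TRULI at 10 days. In CPM these are 1.93, 1.93 and 2.22, then 0.638, 5.86 and 6.17, then 23.2 and 17.95, and last 12.9 and 1.46. The pair labeled DMSO at 10 days was the highest, while of the replicates of TRULI at 10 days the first lay above all DMSO libraries at 5 days and the second below them. Hair-cell markers summed to 859 CPM in the first of those replicates and to 127 CPM in the second, and the part of that difference in the Oc90 values was not tested.

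Otop1 (chromosome 5, 38275972 to 38304217, plus strand), the gene for the proton channel, ran opposite to Otoa. It stood at 140, 121 and 147 CPM in DMSO at 5 days, at 494, 863 and 278 CPM in TRULI at 5 days by label, at 167 and 370 CPM in DMSO at 10 days by label and at 576 and 878 CPM in TRULI at 10 days. DMSO at 5 days was the lowest group under either assignment, at a mean of 136 ± 13.4 CPM (SD, n = 3), and no other library overlapped it. The 4 libraries with little mitochondrial RNA were the 4 highest.

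**Figure D3:**
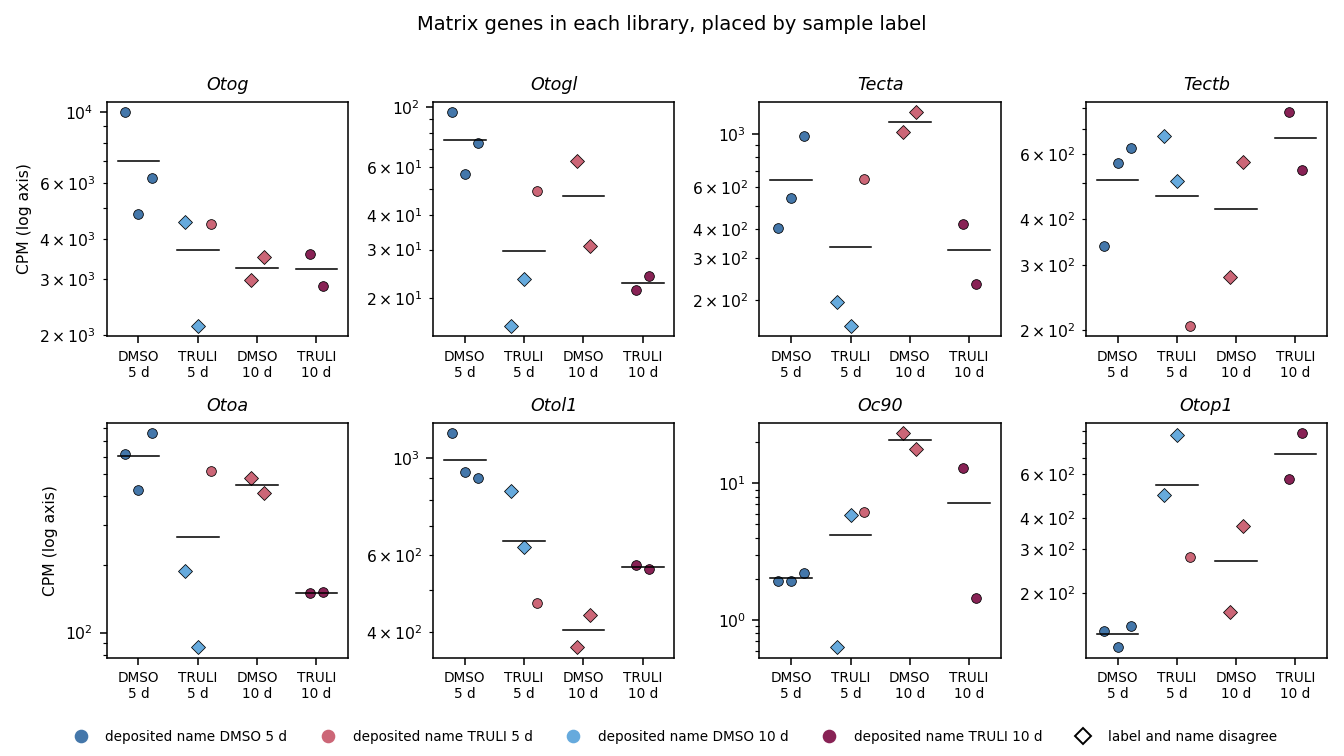
CPM (log axes) of 8 matrix genes in each library, placed by sample label and colored by deposited name, with group means as lines; diamonds are the 4 libraries whose label and name disagree. Otog and Otol1 are highest and Otop1 lowest in the 3 DMSO libraries at 5 days, and Otoa lies at 86.5 to 187 CPM in the 4 libraries with little mitochondrial RNA.

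The first question is what the presence of TRULI did by the end of treatment. Grouped by label, no matrix gene was called among the 7 tested at an adjusted p below 0.05 and a change beyond 1 on the log2 scale (quasi-likelihood test of edgeR, Benjamini-Hochberg adjusted over protein-coding genes), and 0.00945% of all genes tested were called. That share is a single gene, and 1450 of 10580 genes had an unadjusted p under 0.05. The nearest member was Otop1, at a log2 fold change of 1.97 ± 0.44 (SE), with adjusted p = 0.328, and it was higher in 3 of 3 TRULI libraries than in any control. The groups did not overlap for 4 members (Otog, Otogl, Otol1 and Otop1), against 18.3% of all genes tested. The median log2 fold change of the members tested was -0.93, and that of all genes 0.04. Leaving out TRULI at 5 days replicate 3, the library with 1 condition in name and label, gave 4 calls (Otoa, Otogl and Tecta lower and Otop1 higher), and in that fit 2019 of 10810 genes were called, 18.7%. Keeping that library as the sole TRULI sample gave none, with 127 of 11576 genes (1.1%) called and Otop1 at 1.04 (adjusted p = 0.150).

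Grouped by deposited name, TRULI at 5 days is compared among libraries that all have much mitochondrial RNA, and 2 of 8 members tested were called, against 3.1% of all genes (2.1% higher and 0.992% lower). Otol1 fell by 1.20 ± 0.22 (SE) on the log2 scale (adjusted p = 0.0151), from a mean of 988 CPM to 426 CPM, in 3 of 3 libraries. Oc90 rose by 2.95 ± 0.56 (adjusted p = 0.0189), from 2.03 to 15.8 CPM, also in 3 of 3 libraries. At 5 to 9 counts in DMSO at 5 days, it passed the filter on low counts only through the libraries deposited as TRULI at 5 days. A test on that condition cannot decide the rise, so the Oc90 values are a description. Where 7 members are given as tested, Ceacam16 and Oc90 are those left out. Otop1 was at 1.005 ± 0.27 with adjusted p = 0.0795, Otog at -0.93 ± 0.30 with adjusted p = 0.148, and neither was called. The groups of 4 members did not overlap, against 21.5% of all genes, and the members' median was -0.43, against 0.02 for all genes. Without DMSO at 5 days replicate 2 no member was called, without replicate 3 Otol1 alone, and without the library labeled DMSO at 10 days replicate 1 Otop1 alone, and those fits called 0.445%, 1.27% and 1.28% of all genes. With the replicate number as a block, taken to pair these libraries, 675 genes in place of 340 were called (6.15% of those tested). Of the members these again included Otol1 (adjusted p = 0.00075) and Oc90 (adjusted p = 0.00382), for which the limit of the filter still holds. In that paired fit Otog (-0.87, adjusted p = 0.00461), Otop1 (0.95, adjusted p = 0.00789) and Tecta (0.67, adjusted p = 0.0280) missed only the fold required. With all 10 libraries in a single fit Otol1 alone was called, with 0.864% of all genes. Of the supporting-cell markers 1 of 9 was called, Epcam, which fell by 1.30 ± 0.26 (adjusted p = 0.0240). Of the hair-cell markers none of 7 was called, with a median of 1.45, and of the fibroblast markers Postn was called, from 0.529 to 21.2 CPM. Postn had at most 2 counts in the DMSO libraries at 5 days, so it passed the filter only through the others, at 4.77 to 50.4 CPM.

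Cultures kept in DMSO for 10 days were set against those kept for 5 days to see how the genes moved with time in culture. By label, 2 of 8 members were called, against 2.54% of all genes (2.07% higher and 0.467% lower): Oc90 rose by 3.32 ± 0.46 on the log2 scale (adjusted p = 0.00377) and Otol1 fell by 1.29 ± 0.27 (adjusted p = 0.0279), each in 2 of 2 libraries. Oc90 again passed the filter on low counts only through the group where it was high, so its values are a description. The libraries on the 10-day side of this contrast are those deposited as TRULI at 5 days, so that it shares all but 1 of its libraries with the preceding one and is not independent of it. Otog, at -1.11 ± 0.34, had an adjusted p of 0.133. Groups did not overlap for 5 members, against 31.5% of all genes, and the median was -0.34, against 0.01. Otol1 was not called without DMSO at 5 days replicate 1 or 2 or without either library labeled DMSO at 10 days. Without replicate 1 of the latter Otop1 was called. Oc90 was called when any 1 library was left out, but it passed the filter in the same way each time, so these calls add nothing to the description. The fits without 1 library called 1.19% to 2.57% of all genes. With all 10 libraries in a single fit neither Oc90 nor Otol1 was called, with 0.0336% of all genes. Slc1a3 rose by 1.26 ± 0.28 (adjusted p = 0.0361), 1 of 9 supporting-cell markers, and Postn, 1 of 4 fibroblast markers tested, was called higher, from 0.529 to 27.6 CPM. Postn had at most 2 counts in the DMSO libraries at 5 days and stood at 50.4 and 4.77 CPM in the pair labeled DMSO at 10 days.

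By deposited name the same question involves the pair labeled TRULI at 5 days, which has little mitochondrial RNA, and 4 of 7 members were called, against 18.7% of all genes (10.5% higher and 8.14% lower). Otoa fell by 2.20 ± 0.41 on the log2 scale (adjusted p = 0.0128), Otogl fell by 2.02 ± 0.39 (adjusted p = 0.0140) and Tecta fell by 1.92 ± 0.40 (adjusted p = 0.0173). Otop1 rose by 2.25 ± 0.31 (adjusted p = 0.00621), from 136 to 678 CPM. The groups of 6 members did not overlap, against 54.9% of all genes, and the members' median was -1.15, against -0.05. Markers moved in the same comparison. Of 7 hair-cell markers 5 were called lower (Calb2, Gfi1, Myo7a, Otof and Pou4f3) with a median of -3.08, and Otof, the gene for otoferlin, fell from 58.3 to 7.54 CPM. In the pair deposited as DMSO at 10 days Calb2 had 3 and 3 counts, Gfi1 5 and 1, and Myo7a 11 and 0. Calb2, Gfi1 and Myo7a thus passed the filter on low counts only through DMSO at 5 days, and their values are a description. Of 9 supporting-cell markers 3 were called lower: Lfng fell by 3.63 ± 0.47 (adjusted p = 0.00565), Krt8 fell by 1.29 ± 0.33 (adjusted p = 0.0291) and Slc1a3 fell by 1.19 ± 0.31 (adjusted p = 0.0300). The part of these markers in the members' values was not tested. These are the libraries of the comparison by label at 5 days without TRULI replicate 3. Otoa, Tecta and Otop1 were called without DMSO at 5 days replicate 1 or replicate 3, with 4.1% and 6.32% of all genes, and no gene of the whole table was called without replicate 2, although 2748 of 10632 had an unadjusted p under 0.05.

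**Figure D4:**
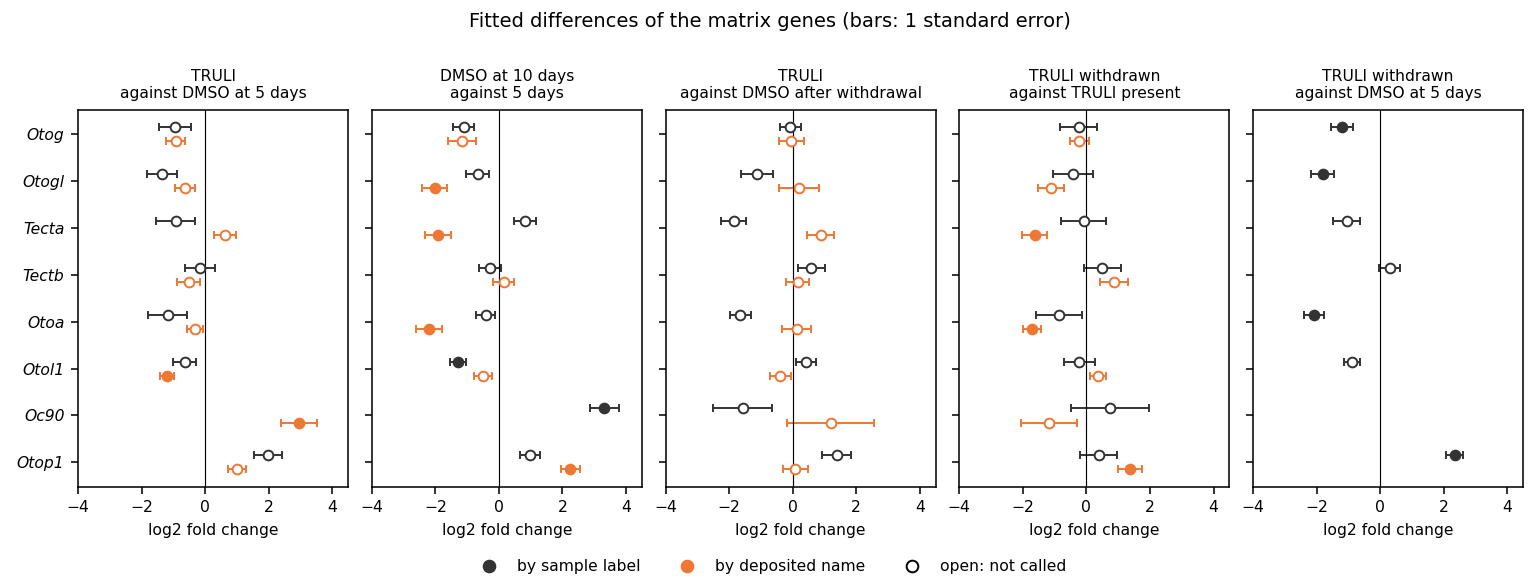
Log2 fold change (points) with 1 standard error (bars) of each matrix gene tested in 5 comparisons, by sample label in black and by deposited name in orange; filled points were called. Filled points are Oc90 and Otol1 where the libraries deposited as TRULI at 5 days meet DMSO at 5 days. Otoa, Tecta, Otogl and Otop1 are filled in some comparisons of libraries with little and with much mitochondrial RNA, but none after withdrawal by label. Otog is filled only in TRULI at 10 days against DMSO at 5 days.

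After withdrawal, TRULI and DMSO cultures of 10 days were compared to see whether a difference persisted. By label no member of 8 tested was called, against 1.97% of all genes (0.942% higher and 1.03% lower), while 2823 of 11469 genes had an unadjusted p under 0.05. Otoa, at -1.64 ± 0.33 (SE) on the log2 scale, had an adjusted p of 0.0527, and that of Tecta, at -1.86 ± 0.39, was 0.0564. Otop1 was at 1.38 ± 0.46 with adjusted p = 0.123. Groups did not overlap for 6 members, against 58.1% of all genes, and the median was -0.59, against 0.01. Leaving out TRULI at 10 days replicate 1 gave calls for Oc90, Otoa, Tecta and Otop1, with 24.5% of all genes called, and leaving out replicate 2 gave calls for Otoa and Tecta, with 18.4%. In the fit without replicate 1 the TRULI library left had 7 counts of Oc90. There Oc90 passed the filter on low counts only through the DMSO pair, so its values are a description. Without a filter on low counts, with DESeq2 or with the replicate number as a block, Otoa, Tecta and Otop1 were called, with 11.5%, 9.22% and 10.6% of all genes. Of 9 supporting-cell markers 3 were called lower in the comparison as reported: Slc1a3 fell by 2.50 ± 0.37 (adjusted p = 0.0323), Lfng fell by 2.32 ± 0.44 (adjusted p = 0.0461) and Krt8 fell by 1.82 ± 0.32 (adjusted p = 0.0444). None of the 7 hair-cell markers tested was called. The mitochondrial share separates these groups completely, and its part was not tested.

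By deposited name, where both groups have little mitochondrial RNA, no member of 8 and 0% of all genes were called with edgeR, and 490 of 10845 had an unadjusted p under 0.05. DESeq2 called 50 genes and none of the members. The fitted log2 differences were -0.05 ± 0.39 for Otog, 0.12 ± 0.47 for Otoa, 0.09 ± 0.40 for Otop1, 0.88 ± 0.42 for Tecta and 1.19 ± 1.37 for Oc90. Groups did not overlap for Otol1 and Tecta, 2 members, against 28.7% of all genes, and the median was 0.14, against 0.01.

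TRULI at 10 days was also set against TRULI at 5 days. Under each assignment this contrast holds the libraries of the withdrawal contrast under the other assignment. It adds only the library labeled TRULI at 5 days replicate 3, so the 2 contrasts are not independent. By label no member of 8 and 0% of all genes were called, with 347 of 11444 at an unadjusted p under 0.05 and 10 called by DESeq2, none of them members. Every adjusted p of a member was 0.999. The median was -0.15, against -0.02 for all genes, and the groups overlapped for every member, whereas they did not for 16% of all genes. By deposited name 3 of 8 members were called, against 14.2% of all genes (8.23% higher and 5.99% lower): Otoa fell by 1.70 ± 0.28 on the log2 scale (adjusted p = 0.0137), Tecta fell by 1.62 ± 0.40 (adjusted p = 0.0335) and Otop1 rose by 1.38 ± 0.37 (adjusted p = 0.0428). Groups did not overlap for 5 members, against 51.4% of all genes, and the median was -0.67, against -0.01. Of 9 supporting-cell markers 4 were called lower (Krt8 at -1.74, Lfng at -2.17, Slc1a3 at -2.17 and Sox2 at -1.16 on the log2 scale), and Mbp was called higher, from 32.4 to 91.5 CPM. Otoa was called in 3 of the 5 fits that left out a library, and no member was called without TRULI at 5 days replicate 1 or 2 of the deposited names, which are labeled TRULI at 5 days replicate 3 and DMSO at 10 days replicate 1, where 1.97% and 0.035% of all genes were called.

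A comparison that uses only libraries whose label and name agree was added after the data had been seen: TRULI at 10 days (2) against DMSO at 5 days (3). In it compound, culture time and mitochondrial share change together and cannot be told apart. Of 7 members tested 4 were called, against 19.8% of all genes (11% higher and 8.76% lower). Otoa fell by 2.08 ± 0.32 on the log2 scale (adjusted p = 0.00748), Otogl fell by 1.81 ± 0.36 (adjusted p = 0.0136), Otog fell by 1.20 ± 0.36 (adjusted p = 0.0449), and Otop1 rose by 2.34 ± 0.28 (adjusted p = 0.00427), from 136 to 727 CPM. Otol1, at -0.89 ± 0.26 with adjusted p = 0.0417, did not reach the fold required, and Tecta and Tectb, at -1.05 and 0.30, had adjusted p of 0.103 and 0.532. Groups did not overlap for 5 members, against 53.2% of all genes, and the median was -1.05, against 0.01. Otoa and Otop1 were called when any 1 library was left out, but Otog and Otogl were lost without any 1 of the DMSO libraries. Otog was also lost without either TRULI library, and without TRULI replicate 1 Tecta was called. Without TRULI replicate 2 Oc90 was called, but it passed the filter on low counts only through the TRULI library left, at 71 counts. That call rests on 1 library with a high value, and the Oc90 values are a description. Those fits called 2.53% to 6.95% of all genes without a DMSO library and 24% to 29.1% without a TRULI library. None was called with all 10 libraries in a single fit by label, with 0.0923% of all genes. Of 9 supporting-cell markers 3 were called lower here: Lfng fell by 2.67 ± 0.31 (adjusted p = 0.00410), Slc1a3 fell by 1.26 ± 0.31 (adjusted p = 0.0267) and Sox2 fell by 1.15 ± 0.34 (adjusted p = 0.0450). Mbp rose by 1.54 ± 0.38 (adjusted p = 0.0267) and the fibroblast marker Col1a2 by 2.50 ± 0.59 (adjusted p = 0.0220), and none of the 7 hair-cell markers tested was called.

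Whether the effect of TRULI differed between 5 days and after withdrawal was asked by an interaction term over all 10 libraries, also added after the data had been seen. No gene of 11918 was called by label or by deposited name, where 792 and 1110 had an unadjusted p under 0.05. The lowest p among the members was that of Otol1, 0.0489 by label (adjusted p = 0.748) and 0.0375 by deposited name (adjusted p = 0.511). All of these contrasts draw on the same 10 libraries, and those against DMSO at 5 days share their controls.

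Other components of these matrices were read from lists of known genes. The tectorial and cupular list holds 11 genes, among them the fibrillar and associated collagens of the tectorial membrane, and its summed level was 217 to 1344 CPM. In TRULI at 10 days against DMSO at 5 days 5 of 6 tested were called lower and none higher, with a median of -1.94 against 0.01 for all genes and 8.76% of all genes called lower. Col9a3, which encodes a chain of type IX collagen, stood at 15.1, 36.6 and 46.2 CPM in DMSO at 5 days and at 1.81 and 1.04 CPM in TRULI at 10 days. It fell by 4.55 ± 0.67 on the log2 scale (adjusted p = 0.00677). It had 10 and 5 counts in TRULI at 10 days, and 17 and 1 in the pair deposited as DMSO at 10 days. In the contrasts that call it, Col9a3 passed the filter on low counts only through the group where it was high. Its values are thus a description, although it is counted among the called genes. Col11a1 fell by 1.73 ± 0.31 (adjusted p = 0.0113) and Col9a1 by 1.94 ± 0.36 (adjusted p = 0.0117). For Col2a1, Col9a1, Col9a3, Col11a1 and Col11a2 every library with little mitochondrial RNA lay below all those with much, and for Col9a2 they overlapped. The part of this split in the collagen values was not tested. By deposited name, DMSO at 10 days against 5 days also gave 5 of 6 lower and none higher, with 8.14% of all genes called lower: Col9a3 fell by 4.26 ± 0.78 (adjusted p = 0.0122), Col9a1 by 2.29 ± 0.44 (adjusted p = 0.0134) and Col11a2 by 3.11 ± 0.66 (adjusted p = 0.0174). By label Col9a3 fell by 4.003 ± 0.71 after withdrawal (adjusted p = 0.0444), 1 of 8 tested, against 1.03% of all genes called lower, and by deposited name Col9a3 and Col11a1 fell between TRULI at 5 and at 10 days, 2 of 8 tested, against 5.99%. No gene of the list was called in the other comparisons. Coch, Otos, Zpld1, Emilin2 and Strc, which encode further gel, stereociliary or fibrocyte proteins, never exceeded 5.08 CPM.

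The otoconia formation and mineral list also holds 11 genes, with a summed level of 3467 to 6064 CPM, nearly all of it from Sparc (mean 2756 CPM) and Sparcl1 (mean 1325 CPM), which encode related calcium-binding matrix proteins. Nox3, Noxa1, Dmp1 and Ahsg never exceeded 3 counts, so that of the Nox3 oxidase complex, which otoconia formation requires, Noxo1 (mean 30.4 CPM) and Cyba (mean 2.71 CPM) were detected and Nox3 itself was not. Sparcl1 stood at 1848, 1439 and 2230 CPM in DMSO at 5 days, at 311, 163 and 2231 CPM in TRULI at 5 days by label, at 1537 and 2862 CPM in DMSO at 10 days by label and at 429 and 202 CPM in TRULI at 10 days. The 4 libraries with little mitochondrial RNA again formed the low group. Sparcl1 fell by 2.63 ± 0.39 on the log2 scale in TRULI at 10 days against DMSO at 5 days (adjusted p = 0.00705) and by 2.86 ± 0.50 after withdrawal by label (adjusted p = 0.0444). By deposited name it fell by 3.02 ± 0.39 in DMSO at 10 days against 5 days (adjusted p = 0.00565) and by 2.85 ± 0.44 between TRULI at 5 and at 10 days (adjusted p = 0.0130).

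Slc26a4 encodes pendrin, an anion exchanger of the endolymph-facing epithelium, and followed another pattern. It stood at 201, 207 and 204 CPM in DMSO at 5 days, at 152, 153 and 47.3 CPM in TRULI at 5 days by label, at 100 and 64.1 CPM in DMSO at 10 days by label and at 205 and 124 CPM in TRULI at 10 days. Its 3 lowest libraries were the 3 deposited as TRULI at 5 days. It fell by 1.504 ± 0.28 on the log2 scale in TRULI at 5 days by deposited name (adjusted p = 0.0167) and by 1.30 ± 0.28 in DMSO at 10 days by label (adjusted p = 0.0355). Cyba rose by 3.13 ± 0.80 in DMSO at 10 days against 5 days by deposited name (adjusted p = 0.0288), from 0.508 to 4.98 CPM. It had 1 or 2 counts in the DMSO libraries at 5 days and passed the filter on low counts only through the pair with 28 and 15 counts. In each of these 6 comparisons 1 gene of the list was called lower, of 5 to 7 tested, where the share of all genes called lower ran from 0.467% to 8.76%. Cyba was the sole gene called higher in any, and in its comparison 10.5% of all genes were called higher.

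**Figure D5:**
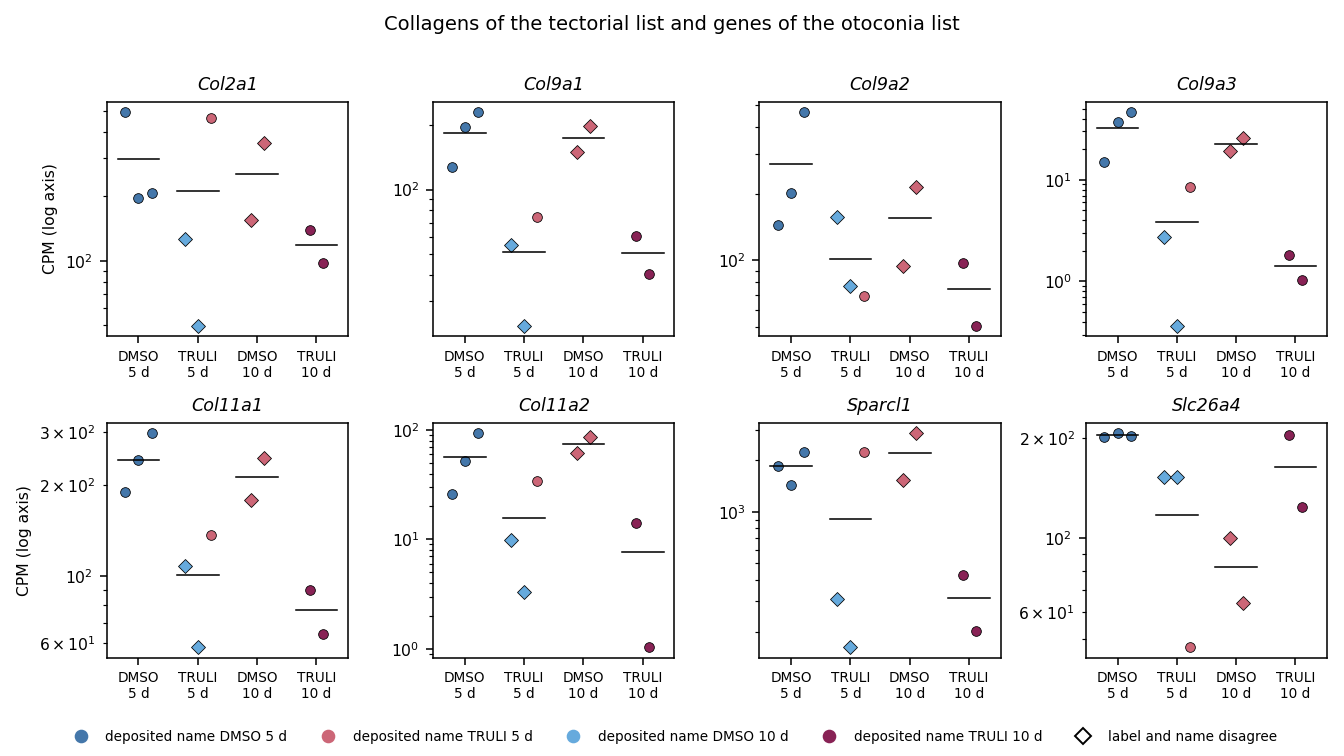
CPM (log axes) of the 6 collagens of the tectorial list and of Sparcl1 and Slc26a4 in each library, placed by sample label and colored by deposited name; lines are group means and diamonds the libraries whose label and name disagree. Col9a3 lies at 1.81 CPM and 1.04 CPM in TRULI at 10 days against 15.1 to 46.2 CPM in DMSO at 5 days, and Slc26a4 is lowest in the 3 libraries deposited as TRULI at 5 days.

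Across the 10 libraries the members fell into patterns that can be given as Pearson correlations of log2(CPM + 0.5), a description of libraries that share conditions and the mitochondrial split. Otoa varied with Otogl (r = 0.858) and Tecta (r = 0.800) and against Otop1 (r = -0.901), and Otogl also varied against Otop1 (r = -0.889). Oc90 varied against Otol1 (r = -0.785). Tectb was the member least tied to the others, with r between -0.544 and 0.355. Among 10856 protein-coding genes the pattern most like that of Otog was that of Sec23b (r = 0.945), which encodes a coat protein of secretory vesicles, followed by Emb (r = 0.931). For Otoa they were Hyou1 (r = 0.987), a chaperone of the endoplasmic reticulum, and Cdkn1b (r = 0.984), the cell-cycle inhibitor p27Kip1. For Otop1 they were Sh3bp1 (r = 0.981) and Txndc5 (r = 0.980), a disulfide isomerase, and for Oc90 Smc4 (r = 0.968), a condensin subunit, and Ect2 (r = 0.929), a factor of cytokinesis. For Tectb they were Sox9 (r = 0.972), a transcription factor of the otic epithelium, and Ppp2r2b (r = 0.955). For Otol1 they were Nbr1 (r = 0.956) and Crim1 (r = 0.934), for Tecta H2afy (r = 0.981) and Ntrk2 (r = 0.965), and for Otogl Pwwp2a (r = 0.984) and Lamb1 (r = 0.968).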

How the data were processed

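The authors mapped the reads with STAR to GRCm38 (mm10). The deposited tables give expected counts, which are estimated read counts that need not be whole, and an effective length for each of 48709 genes, in the form that RSEM writes; the deposited expected counts are not normalized, and the counting program and its strand setting are not given in the sources used here. The labels and the study's methods name different library kits. Of the genes, 48349 matched GENCODE M21.

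Expected counts were rounded to whole numbers and compared with edgeR 4.0.16 (R 4.3.3; filterByExpr, TMM, glmQLFit and glmQLFTest) with the 2 groups of each comparison in the fit. A gene was called at a Benjamini-Hochberg adjusted p below 0.05 over the protein-coding genes tested and an absolute log2 fold change above 1. CPM of single libraries used TMM factors over all 10 libraries, and FPKM used the effective lengths and the protein-coding total. DESeq2 1.42.0, its size factors, no filter, all 10 libraries together, removal of mitochondrially encoded genes, the replicate number as a block and leaving out each library were alternatives. Groups came from the sample labels, and again from the deposited names. For the deposited names, the use of DESeq2's size factors, all 10 libraries together and removal of mitochondrially encoded genes was chosen after seeing the data, as were the comparison of TRULI at 10 days with DMSO at 5 days and the interaction test. The code was tested on simulated data.

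The 9 members and all lists were chosen with earlier results of these data known. The text names every member, from the otoconia and tectorial lists the called genes (at most the 3 with the lowest p in each direction and comparison), from each marker list the genes with the highest and lowest mean (1 marker list is not reported here), and for each member the 2 genes with the most similar pattern. Pairing rests on the replicate numbers, which neither the labels nor the methods describe as shared animals or days. By deposited name, same-numbered libraries at 5 days deviated together (r = 0.360, 0.183 and 0.291 across genes), and the numbers were taken to pair them there. In the other comparisons r ran from -0.172 to 0.257, and it was 0.215 after withdrawal by label. The values thus overlap, and the choice to pair no other comparison does not follow from them alone. The study states biological replicates, but nothing ties libraries to animals, so p-values measure only the spread between these libraries. No libraries were identical: the lowest chi-square per degree of freedom among 45 pairs was 15.3. Promoter windows are those of RefSeq.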

Additional observations from a re-analysis of the deposited data

How the results depend on the processing

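With 2 or 3 libraries a group, leaving out 1 library moved the number of matrix genes called over 0 to 4 (by label) and 0 to 2 (by deposited name) for TRULI at 5 days, 1 to 2 and 0 to 5 for DMSO at 10 days against 5 days, 0 to 4 and 0 to 0 after withdrawal, 0 to 0 and 0 to 4 for TRULI at 10 against 5 days, and 2 to 4 for TRULI at 10 days against DMSO at 5 days. A group left with 1 library is assumed to vary like the other. Taking the condition from the deposited name changed the count from 0 to 2 for TRULI at 5 days, from 2 to 4 for DMSO over time and from 0 to 3 for TRULI over time. DESeq2 and the fit without a filter each called 1 (Otop1) at 5 days by label, with 1.68% and 4.01% of all genes, and 3 (Otoa, Otop1 and Tecta) after withdrawal by label. With all 10 libraries in a single fit the count was 0 for DMSO over time by label, 0 for TRULI at 10 days against DMSO at 5 days and 1 for TRULI at 5 days by deposited name. For these settings the cause was not tested. Over all alternatives the number of protein-coding genes called ran by label from 0 to 2019 (1 as reported) at 5 days, 4 to 2019 (288) for DMSO over time, 0 to 2919 (226) after withdrawal and 0 to 1657 (0) for TRULI over time, by deposited name from 51 to 876 (340), 0 to 3890 (2019), 0 to 176 (0) and 4 to 2819 (1657), and from 11 to 3342 (2196) for TRULI at 10 days against DMSO at 5 days. The replicate block gave 3 calls after withdrawal by label (Otoa, Otop1 and Tecta, with 10.6% of all genes called) and 4 for DMSO over time by label (Oc90, Otog, Otol1 and Tecta, with 4.89%), and for TRULI at 5 days by deposited name, where the numbers were taken to pair the libraries, it changed no call of a member. In the latter the block put Otog, Otop1 and Tecta at an adjusted p below 0.05 without the fold required. By deposited name it added Otog to the DMSO comparison over time (9.77% of all genes called), and in the TRULI comparison over time it called Tectb and not Tecta (9.23%). By label at 5 days the correlations of same-numbered libraries were -0.13, 0.05 and -0.17, and the block left 0 members called.

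Signs of members that were not called turned as follows, on the log2 scale. By deposited name in place of the label, Tecta was at 0.62 for TRULI at 5 days, Tectb at 0.15 and Tecta, there called, at -1.92 for DMSO over time, Oc90 at 1.19, Otoa at 0.12, Otogl at 0.20, Otol1 at -0.39 and Tecta at 0.88 after withdrawal, and Oc90 at -1.18 and Otol1 at 0.36 for TRULI over time. Without the libraries whose label and name disagree Tecta was at 0.028 at 5 days. With the replicate block Otoa was at 0.22, Otog at 0.028, Otogl at 0.22 and Tecta at 0.82 for TRULI over time by label, and Otog at 0.034 after withdrawal by deposited name. Leaving out 1 library gave, by label, -0.50 to 0.15 for Tectb at 5 days, -0.83 to 0.15 for Tectb in DMSO over time, -0.26 to 0.055 for Otog after withdrawal, and, for TRULI over time, -1.53 to 1.59 for Oc90, -1.30 to 0.12 for Otoa, -0.76 to 0.20 for Otogl and -0.55 to 0.88 for Tecta. By deposited name it gave -0.081 to 0.37 for Tectb in DMSO over time and, after withdrawal, -1.11 to 3.45 for Oc90, -0.33 to 0.77 for Otoa, -0.49 to 0.57 for Otog, -0.068 to 0.52 for Otogl, -0.27 to 0.56 for Otop1 and -0.13 to 0.38 for Tectb. Of 90 CPM values 6 moved by more than the SD of their group when library sizes were not scaled by TMM, at ratios between 0.876 and 1.09.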
